A study of Mus musculus with 6 samples.

Results

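The 10 genes described here encode proteins that the lining of the nose secretes, and they were chosen by symbol from the 24564 genes in the files. They are the lipocalins *Obp1a*, *Obp2a*, *Lcn3*, *Lcn11* and *Lcn14*, the BPI fold genes *Bpifa1*, *Bpifb1* and *Bpifb9b*, and the mucins *Muc5b* and *Muc2*. The files list 9 of them under that symbol and *Lcn14* under *Obp2b*, which RefSeq gives as a synonym. They were measured by droplet single-cell RNA-seq in 6 libraries of the mouse main olfactory epithelium. The 2 swap libraries came from mice homozygous for a conditional allele in which Cre replaces HP1β (*Cbx1*) with HP1α (*Cbx5*), and both carried a Cre driver that the study describes as specific to forebrain and neurons. Control replicate 1 is labelled wild type with the Cre, and control replicate 2 is labelled with the conditional allele (Cbx*/*) and names no Cre. The tetOP2 library came from a gg8-tTA; tetOP2iresGFP mouse, in which the tTA transgene drives the odorant receptor P2 together with GFP, and the gg8tTA library from a mouse with the driver alone. The labels give no age and do not say how many animals made up a library.

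Odorant-binding proteins are small lipocalins, barrel-shaped carriers of hydrophobic ligands that are dissolved in nasal mucus. BPI fold proteins are secreted defence proteins of the airways, and gel-forming mucins give mucus its body. In the olfactory mucosa, Bowman glands under the epithelium send their secretion through ducts to the surface, sustentacular cells surround the neurons, microvillar cells are sparse epithelial cells with brush-like tips, and the neighbouring respiratory epithelium has its own secretory and ciliated cells. Papain dissociation bursts some cells, so that RNA of abundant secretory genes can enter droplets of other cells.

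4 of the 5 lipocalins lie in 1 stretch of chromosome 2 on the plus strand (mm10, GRCm38): *Obp2a* at chr2:25700043-25703326, *Lcn14* at chr2:25737009-25740097, *Lcn3* at chr2:25765569-25768099 and *Lcn11* at chr2:25777017-25780279, with gaps of 33.682, 25.471 and 8.917 kb between neighbours. *Obp1a* lies on the minus strand of the X chromosome (chrX:78085505-78091374). *Bpifa1*, *Bpifb1* and *Bpifb9b* lie together farther along chromosome 2 (chr2:154142880-154149219, chr2:154190818-154220369 and chr2:154307227-154320646), and *Muc2* and *Muc5b* lie together on chromosome 7 (chr7:141690340-141754693 and chr7:141839070-141873084).

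The promoters of the 5 lipocalins are shown because these genes were found mainly in the same group of gland cells. Within that group some pairs of genes shared many cells and others few or none. Each sequence is the coding strand in the RefSeq annotation of GRCm38.p6, from 250 bases before to 50 bases after the start. Capitals mark the TATA box letters TATAAA and the SOX core letters ACAATG, searched on both strands (CATTGT is ACAATG on the other strand).
Obp2a (chr2:25699824-25700123, plus strand): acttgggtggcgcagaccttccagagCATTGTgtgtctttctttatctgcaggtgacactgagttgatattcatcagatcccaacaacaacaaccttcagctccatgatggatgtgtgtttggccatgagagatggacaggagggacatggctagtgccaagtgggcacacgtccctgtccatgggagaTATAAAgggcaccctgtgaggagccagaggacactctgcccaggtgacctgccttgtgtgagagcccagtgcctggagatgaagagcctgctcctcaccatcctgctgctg
Lcn14 (chr2:25736757-25737056, plus strand): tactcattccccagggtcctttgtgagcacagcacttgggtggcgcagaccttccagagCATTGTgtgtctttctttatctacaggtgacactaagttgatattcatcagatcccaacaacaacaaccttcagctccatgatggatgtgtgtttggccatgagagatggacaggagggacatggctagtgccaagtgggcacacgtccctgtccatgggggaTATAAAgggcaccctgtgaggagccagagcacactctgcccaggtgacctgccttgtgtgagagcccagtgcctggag
Lcn3 (chr2:25765283-25765582, plus strand): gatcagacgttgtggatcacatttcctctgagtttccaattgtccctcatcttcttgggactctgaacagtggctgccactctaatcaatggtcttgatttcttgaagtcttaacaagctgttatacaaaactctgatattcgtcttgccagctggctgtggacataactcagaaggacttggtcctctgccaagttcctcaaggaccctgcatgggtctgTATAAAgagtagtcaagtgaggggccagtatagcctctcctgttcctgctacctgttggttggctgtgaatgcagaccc
Lcn11 (chr2:25776767-25777066, plus strand): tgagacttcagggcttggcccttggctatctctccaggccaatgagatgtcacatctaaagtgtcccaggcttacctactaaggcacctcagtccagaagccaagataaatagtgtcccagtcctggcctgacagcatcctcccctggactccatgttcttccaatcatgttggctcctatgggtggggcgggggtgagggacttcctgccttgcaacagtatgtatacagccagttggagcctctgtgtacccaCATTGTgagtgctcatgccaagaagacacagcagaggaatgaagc
Obp1a (chrX:78091325-78091624, minus strand): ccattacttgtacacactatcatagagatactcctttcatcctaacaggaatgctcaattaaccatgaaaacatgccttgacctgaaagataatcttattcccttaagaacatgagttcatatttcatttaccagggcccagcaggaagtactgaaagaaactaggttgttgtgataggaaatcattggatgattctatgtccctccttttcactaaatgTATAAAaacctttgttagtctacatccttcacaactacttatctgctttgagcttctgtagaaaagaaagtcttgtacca

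The promoters of *Obp2a* and *Lcn14* had 79% identical bases (263 of 333 aligned columns) in a pairwise alignment, against 45.4% to 52.1% for the other 9 pairs of these 5 promoters. Both windows hold the same stretch at an offset, with TATAAA 61 and 28 bases before the annotated start. The start used for the *Obp2a* window lies downstream of the gene start given above (chr2:25700043), so its 61 bases and the offset depend on the start that was used. The 79% counts the unmatched ends and is lower than the likeness of the stretch that both windows cover. Their transcripts had 72.5% identical bases, against 50.6% to 57% for the other pairs. TATAAA began 30, 61, 29 and 28 bases before the annotated start of *Obp1a*, *Obp2a*, *Lcn3* and *Lcn14*, and was not among the letters of the *Lcn11* window. ACAATG was found on the minus strand in *Obp2a*, *Lcn14* and *Lcn11*. Of all 32851 promoter windows, 13.6% held TATAAA and 12.6% held ACAATG on either strand. Of the 91-base stretches of the *Obp2a* transcript, 6.12% also occurred in *Lcn14*, and 56.4% of those of *Bpifb9b* occurred in its neighbour *Bpifb9a*. Counts of *Bpifb9b* are therefore uncertain where reads could fit both copies.

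The files held 58498968 to 63277934 UMIs (unique molecular identifiers, 1 per captured RNA molecule) in the swap and control libraries, and 32005196 and 35298494 in tetOP2 and gg8tTA. After filters on depth and doublets, 23955 cells remained, 2510 to 4884 per library, with a median depth of 9726 to 11450 UMIs. Pairs of libraries shared 0 to 13 cell barcodes. *Cbx1* was at 0.61 to 3.3 CPM (UMIs per 1000000 UMIs of a summed class) in gland, sustentacular and neuron sums of the swap libraries. In those of the controls it was at 49.1 to 154 CPM, as the labels say, although the Cre is described as neuronal. *Cbx5* in neurons was at 73.2 and 91 CPM in swap replicates 1 and 2 and at 19.6 and 29.2 CPM in the controls. In sustentacular sums it was at 147 and 192 against 98.5 and 136 CPM. In gland sums it was at 79.3 and 100 against 38.6 and 143 CPM, so the groups overlapped there. *Xist*, a transcript of the inactive X chromosome, was at 738 to 1374 CPM in swap replicate 1, tetOP2 and gg8tTA and at 0 to 1.22 CPM in swap replicate 2 and both controls, so sex differed between the swap libraries but not between the controls.

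The gland gate used 7 markers (*Sox9*, *Sox10*, *Aqp5*, *Gpx6*, *Azgp1*, *Cldn10* and *Kcnn4*), none of them a member, and took 654 cells. These came as 144 and 53 cells in swap replicates 1 and 2, 199 and 48 in control replicates 1 and 2, 57 in tetOP2 and 153 in gg8tTA. Clustering split them into a Dcpp cluster of 280 cells, led by *Dcpp2*, *Dcpp1*, *Dcpp3* and *Chil6*, and a lipocalin cluster of 342 cells, led by *Scgb1b27*, *5430401F13Rik* and *Lcn11*, with 32 cells elsewhere. *Dcpp1*, *Dcpp2* and *Dcpp3* had a UMI in 46.8%, 34.6% and 42.5% of the 280 cells, so the name does not mean that every cell held them. The clusters were made without the members, whose place among the leading genes is therefore a description only. The leading genes were taken over the whole clusters of 331 and 494 cells, which also hold cells outside the gland class. *Sox9*, a transcription factor gene of gland and duct cells, had a UMI in 95.4% of Dcpp cells and 85.4% of lipocalin cells, and *Cldn10*, a tight junction gene, in 97.9% and 92.4%. In mature neurons the same shares were 0.824% and 1.22%. Both are gate markers, so their shares in gated cells were raised by the gate itself and are a description only. *Sox10* had a UMI in 76.8% and 55.3% of Dcpp and lipocalin cells, *Kcnn4* in 71.1% and 83.6%, and *Azgp1* in 36.1% and 22.2%. *Aqp5* was found in 98.6% and 93%, but also in 92.1% of sustentacular cells. *Gpx6*, an odorant-metabolizing glutathione peroxidase gene typical of Bowman glands, had a UMI in 30.4% of Dcpp cells (2368 CPM) but in 8.77% of lipocalin cells (3.55 CPM), close to its 7.99% in sustentacular cells (12.5 CPM). Both clusters also carried markers listed for other serous nasal glands, which were *Dcpp1*, *Dcpp2* and *Dcpp3* at 8506, 1597 and 8920 CPM in the Dcpp cluster and *Car6* and *Odam* at 1494 and 32.6 CPM in the lipocalin cluster. *Smgc* of that list was at 0 in both. Bowman gland and other nasal glands could therefore not be told apart by these markers, and the cells are called gland-gated cells here. The sustentacular marker *Cyp2g1*, an olfactory cytochrome P450 gene, stood at 2691 CPM in the Dcpp cluster and 46.3 CPM in the lipocalin cluster, against 10812 CPM in sustentacular cells. In the same order, *Cyp1a2* was at 732, 3.15 and 1029 CPM and *Ermn* at 359, 3.25 and 703 CPM. *Ugt2a1* was at 193, 7.49 and 480 CPM, *Sec14l3* at 170, 22 and 7005 CPM, and *Cbr2* at 351, 287 and 8632 CPM. How like sustentacular cells each cluster was thus depended on the marker.

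Across cell classes the 10 genes fell into 3 patterns. Gland-gated cells held 94.1% of all *Lcn11* UMIs, 92.5% of *Obp1a*, 91.3% of *Bpifb9b*, 85.5% of *Obp2a*, 84.2% of *Lcn3* and 83.8% of *Lcn14*. Respiratory secretory cells held 90.9% of *Bpifb1*, 85.4% of *Bpifa1* and 68.5% of *Muc5b*, with 25.6% of *Muc5b* in gland-gated cells. Sustentacular cells held 93.6% of *Muc2*. Each gene thus had its home in 1 class, except *Muc5b* with a pair of them.

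**Figure D1:**
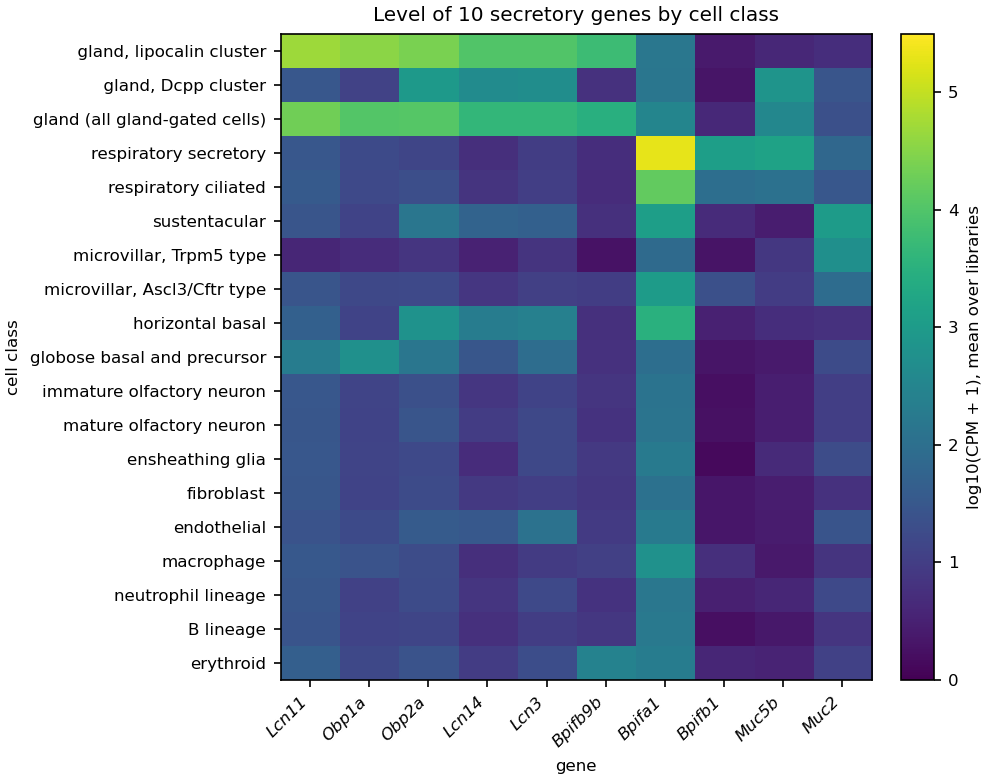
Heat map of the mean level of each gene (columns) in each cell class (rows), as log10(CPM + 1) averaged over libraries. The gland rows are bright for the 5 lipocalins and *Bpifb9b*, the respiratory secretory row for *Bpifa1*, *Bpifb1* and *Muc5b*, and the sustentacular row for *Muc2*.

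The lipocalins and *Bpifb9b* were carried by few cells. The 10 richest cells of all held 53.6% of the *Obp1a* UMIs, 48.9% of *Bpifb9b*, 40.8% of *Obp2a*, 38.5% of *Lcn14*, 35.7% of *Lcn3* and 17.7% of *Lcn11*. The same share was 28.3% for *Bpifb1*, 24.8% for *Muc5b* and 14.5% for *Bpifa1*, so this was not particular to the lipocalins. For *Muc2*, spread over the sustentacular layer, it was 2.02%. A single cell of control replicate 1 held 30153 *Obp1a* UMIs, 23.9% of its RNA count, and a cell of control replicate 2 held 19681 *Obp2a* UMIs, 35.6% of its count. A level summed over a class could therefore rest on a few such cells.

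In all, 331 cells had 50 or more UMIs of at least 1 of the 5 lipocalins and *Bpifb9b*. Of these, 320 lay in the whole cluster of 494 cells behind the lipocalin cluster, which also holds cells outside the gland class. Of the 331 cells, 284 were assigned to the gland class, with a median of 5 gland markers of 7. Another 32 passed no gate, with a median of 2, and the rest were assigned to other classes. The library counts were 89 and 7 in swap replicates 1 and 2, 127 and 2 in control replicates 1 and 2, 6 in tetOP2 and 100 in gg8tTA. Swap replicate 1, control replicate 1 and gg8tTA, which differ in labelled genotype and cover both levels of *Xist*, thus held nearly all of them. The gene with most UMIs in the cell was *Lcn11* in 169 cells, *Obp2a* in 46, *Obp1a* in 44, *Bpifb9b* in 42, *Lcn3* in 26 and *Lcn14* in 4. These counts are of molecules and are not scaled by transcript length.

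The 6 genes combined in a few ways. Of 83 cells with 50 or more *Obp1a* UMIs, 79 (95.2%) also had 50 or more of *Lcn11*, whereas only 35.6% of the 222 *Lcn11* cells had *Obp1a*. *Obp2a* and *Lcn14* were found together in 94 cells, 80.3% of the 117 *Obp2a* cells and 84.7% of the 111 *Lcn14* cells. *Lcn14* holds 6.12% of the 91-base stretches of the *Obp2a* transcript, and the part of reads fitting both was not tested. *Lcn3* kept to this pair, with 49 of its 65 cells (75.4%) also having *Obp2a* and 52 (80%) *Lcn14*. *Lcn3* and *Obp1a* shared 0 cells, and *Lcn3* and *Lcn11*, although neighbours 8.917 kb apart, shared 4. *Bpifb9b* stood alone, since of its 43 cells 1 had *Obp1a*, 1 had *Lcn11* and 0 had *Obp2a*, *Lcn3* or *Lcn14*. *Lcn11* was split, with 70 of its cells also having *Obp2a*. Cells of 1 library are not replicates, so these overlaps are given as descriptions.

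**Figure D2:**
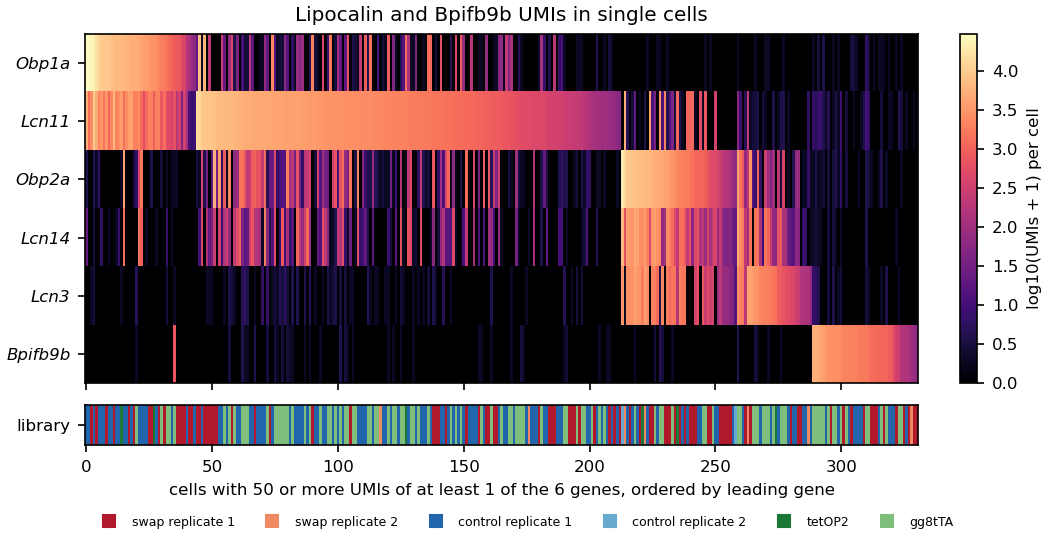
UMIs per cell of the 5 lipocalins and *Bpifb9b* (rows, as log10(UMIs + 1)) in the 331 cells (columns) with 50 or more UMIs of at least 1 of them, ordered by the gene with most UMIs, with the library of each cell below. *Obp1a* cells also hold *Lcn11*, *Obp2a* cells hold *Lcn14* and often *Lcn3*, and *Bpifb9b* cells hold almost none of the others.

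*Lcn11* in gland-gated cells was at 34961 and 4919 CPM in swap replicates 1 and 2, 33711 and 0 CPM in control replicates 1 and 2, 5448 CPM in tetOP2 and 43395 CPM in gg8tTA. *Obp1a* was at 22146 and 0 CPM in swap replicates 1 and 2, 28741 and 0 CPM in the controls, 7853 CPM in tetOP2 and 5431 CPM in gg8tTA. A count of 0 allows up to 1.83 CPM in swap replicate 2 and 2.02 CPM in control replicate 2. Both genes were high in both libraries numbered 1 and low or not seen in those numbered 2, so the groups overlapped. *Bpifb9b* was at 3310 and 63.4 CPM in the swap libraries, 3008 and 0 CPM in the controls, 0 CPM in tetOP2, where a count of 0 allows up to 2.14 CPM, and 11524 CPM in gg8tTA.

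*Obp2a* in the same cells had 12151 and 12881 CPM in swap replicates 1 and 2, 9143 and 13249 CPM in the controls, 6989 CPM in tetOP2 and 13825 CPM in gg8tTA. This evenness hid a different spread over cells. In control replicate 2, 19681 of 19683 gland *Obp2a* UMIs, all 6643 of *Lcn14* and 3042 of 3043 of *Lcn3* came from the same cell. In gg8tTA, 34 gland-gated cells had 20 or more *Obp2a* UMIs, against 42 in control replicate 1, 28 in swap replicate 1, 3 in swap replicate 2, 2 in tetOP2 and 1 in control replicate 2. *Lcn3* ranged from 2048 CPM in control replicate 2 to 10216 CPM in gg8tTA, with a median of 3281, and *Lcn14* from 2191 CPM in tetOP2 to 8893 CPM in gg8tTA, with a median of 4239. For both, gg8tTA stood above the other 5 libraries.

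**Figure D3:**
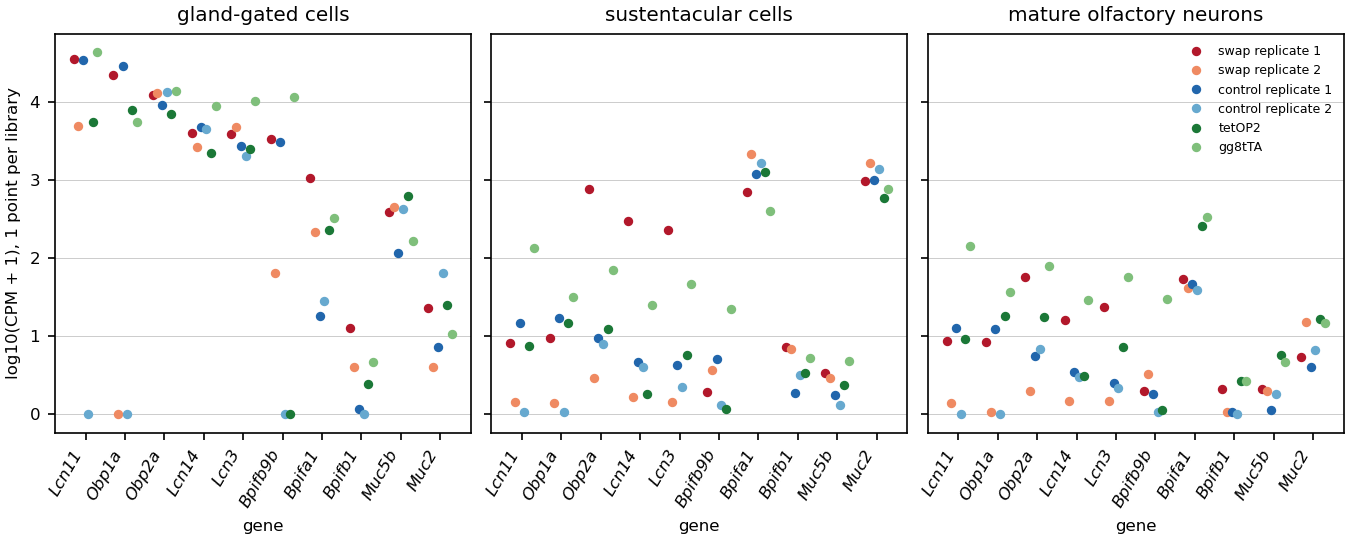
Level of each gene (x axis) as log10(CPM + 1) in each of 6 libraries (1 point each) in gland-gated cells, sustentacular cells and mature olfactory neurons. In gland-gated cells *Lcn11* runs from 0 to 43395 CPM, whereas *Muc2* in sustentacular cells lies between 591 and 1668 CPM in all 6.

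The number of Dcpp cells was alike between libraries, with 43 and 44 in the swap libraries, 67 and 43 in the controls, 45 in tetOP2 and 38 in gg8tTA, or 0.895% to 1.79% of kept cells. The lipocalin cluster had 92 and 4 cells in swap replicates 1 and 2 (1.92%, exact 95% interval 1.55% to 2.34%, and 0.0842%, 0.0229% to 0.215%). Control replicates 1 and 2 had 124 and 1 (2.54%, 2.12% to 3.02%, and 0.0234%, 0.000592% to 0.13%), tetOP2 had 10 (0.398%, 0.191% to 0.731%) and gg8tTA 111 (4.06%, 3.36% to 4.87%). The intervals cover counting error only. Both libraries numbered 1 differed from those numbered 2, in the swap group and in the control group. The 2 controls also differed in labelled genotype. Fibroblasts, cells of the connective tissue around glands, moved with them in part, at 266 and 49 cells in swap replicates 1 and 2, 174 and 32 in the controls and 262 in gg8tTA, but tetOP2, with few lipocalin cells, had 233. The part of the sampled tissue in these shares was not tested.

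**Figure D4:**
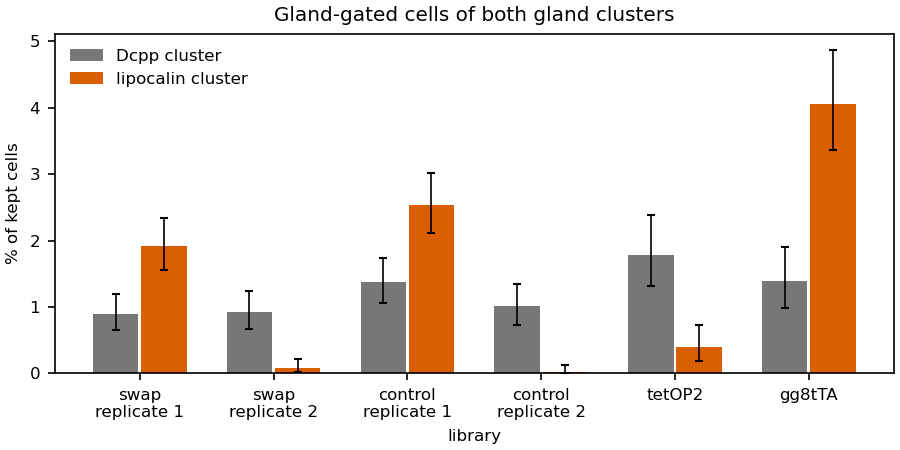
Gland-gated cells of the Dcpp cluster and of the lipocalin cluster as a percentage of the kept cells of each library, with exact 95% binomial intervals as bars. The Dcpp bars lie between 0.895% and 1.79%, and the lipocalin bars between 0.0234% and 4.06%.

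The 2 clusters divided the genes as well. In the lipocalin cluster *Lcn11* was at 49479 and 55458 CPM in control replicate 1 and gg8tTA, the libraries with most of its cells, and in the Dcpp cluster at 11.3 and 150 CPM. *Muc5b* went the other way, at 379 to 1268 CPM in the Dcpp cluster and 0 to 4.98 CPM in the lipocalin cluster. 1 cell of the Dcpp cluster in swap replicate 2 was an exception, with 7229 UMIs of *Obp2a*, 4001 of *Lcn3* and 3568 of *Lcn14*. The gland-gated cells with 20 or more *Muc5b* UMIs numbered 64. *Vmo1*, a gene of the Dcpp cluster, had a UMI in 98.4% of these 64 and *Dcpp1* in 48.4%, against 25.4% and 3.93% of the 331 lipocalin or *Bpifb9b* cells.

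Gland-gated cells were compared with sustentacular cells, the other class of supporting secretory cells in the same suspensions, by edgeR's quasi-likelihood test on UMIs summed per library, with the library as a block. A call needed an adjusted p below 0.05 together with a log2 difference of more than 0.58 either way. All 10 members passed the filter on low counts, which a gene high in gland cells alone also passes. 7 were called higher and 1 lower in gland-gated cells, where 34.8% of all 12909 genes tested were called, 16.5% higher and 18.3% lower. *Lcn11* had a log2 fold change of 11.29 (SE 0.95, adjusted p = 3.8e-05). The other lipocalins had 9.98 (*Lcn14*), 9.81 (*Obp1a*), 9.75 (*Obp2a*) and 9.49 (*Lcn3*), with SE between 1.19 and 1.31 and adjusted p between 0.00025 and 0.00045. *Bpifb9b* had 9.08 (SE 1.52, adjusted p = 0.0015) and *Muc5b* 8.13 (SE 0.45, adjusted p = 5.8e-06). *Muc2* was lower at -5.52 (SE 0.53, adjusted p = 7.8e-05). *Bpifa1* (-2.45, SE 1.08, adjusted p = 0.096) and *Bpifb1* (-0.04, SE 0.49, adjusted p = 0.96) did not pass. *Bpifa1* was called lower in 7 of 18 alternatives, namely DESeq2 (-2.47), 1 gate marker more (-3.68), cluster classes (-3.89), Dcpp cells alone (-3.19), lipocalin cells alone (-2.70), without swap replicate 1 (-3.20) and without gg8tTA (-3.11). The lipocalin calls rest on 1 of the 2 clusters. With Dcpp cells alone the lipocalins had log2 fold changes of 0.02 to 0.57 and were not called, *Bpifb9b* had -0.50, and *Muc5b* had 8.96. With lipocalin cells alone *Muc5b* had 0.99 and was not called.

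In sustentacular sums most UMIs of *Obp2a*, *Lcn3* and *Lcn14* came from 1 cell of swap replicate 1, which also passed the gland gate. It held 8655 of 9303 *Obp2a* UMIs in 3565 sustentacular cells, 2582 of 2889 for *Lcn3* and 3412 of 3631 for *Lcn14*. *Obp1a* and *Lcn11* were spread instead, with 11 of 462 and 19 of 812 UMIs in the top 3 cells, and 42 and 97 in the 310 sustentacular cells that also passed the gland gate. Swap replicate 1 accordingly stood at 762 CPM of *Obp2a*, against 1.91 to 70.3 CPM in the other 5 libraries.

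*Bpifa1*, a secreted airway surfactant and defence protein, was at 76355 and 209453 CPM in the respiratory secretory cells of swap replicates 1 and 2, 230998 and 355372 CPM in control replicates 1 and 2, 151842 CPM in tetOP2 and 137696 CPM in gg8tTA. It was the highest class for *Bpifa1* in every library. These cells numbered 193 and 61 in the swap libraries, 45 and 28 in the controls, 33 in tetOP2 and 39 in gg8tTA. Of the markers of this class, *Reg3g*, *Tff2* and *Scgb3a1* had a UMI in 97.7%, 90.2% and 73.4% of its cells, and *Scgb1a1* in 0%. *Cyp2f2* did not set them apart, at 2190 CPM against 2586 CPM in sustentacular cells. The sustentacular marker *Cbr2* had a UMI in 98.7% of them, so the class may be mixed. The lower swap value belonged to the library with the most such cells. The swap and control libraries did not overlap, but how many of all genes showed this was not counted, so it is not read as a result about *Bpifa1*. No exact permutation test of 2 libraries against 2 can reach 0.05, and no test was made. *Bpifb1*, a larger relative of *Bpifa1*, was at 868 to 1650 CPM with a median of 1071. *Muc5b*, a gel-forming airway mucin, was at 762 to 2727 CPM with a median of 1361.

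Ciliated respiratory cells came next for both BPI fold genes, with means of 14895 ± 9344 CPM for *Bpifa1* and 94.6 ± 64.1 CPM for *Bpifb1* (SD, n = 6 libraries). Of 117 cells with 20 or more *Bpifb1* UMIs, 99 (84.6%) also had 20 or more of *Bpifa1*, and these were 19.1% of the 517 *Bpifa1* cells. *Muc5b* reached 20 UMIs in 173 cells, 103 of them respiratory secretory and 64 gland-gated, and 84 of the 173 had 20 or more *Bpifa1* UMIs.

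*Muc2*, best known as the gel-forming mucin of intestinal goblet cells, was at 975 and 1668 CPM in the sustentacular cells of swap replicates 1 and 2, 1005 and 1387 CPM in the controls, 591 CPM in tetOP2 and 771 CPM in gg8tTA. At least 1 *Muc2* UMI was found in 84.1% to 95.2% of sustentacular cells. With each cell thinned to 3000 UMIs, the shares were 71.1% to 93.9% in sustentacular cells and 0.675% to 4.68% in mature neurons. Shallower cells were left out, 0 to 141 sustentacular cells per library.

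*Muc2* also appeared in sums of microvillar cells of the Trpm5 type, chemosensory-like cells, at 826 and 746 CPM in the swap libraries and 11.8 and 711 CPM in the controls. Nearly all of it was in cells that also held sustentacular RNA. The 30 of these cells with 20 or more UMIs of sustentacular markers held 928 *Muc2* UMIs (1025 CPM) at a median depth of 25917 UMIs, while the other 68 held 2 (3.78 CPM) at a median of 6808. Microvillar cells of the Ascl3/Cftr type, ionocyte-like cells, gave the same picture, with 402 *Muc2* UMIs in 20 such cells (623 CPM) and 18 in the other 439 (4.29 CPM). Mature neurons with fewer than 20 sustentacular marker UMIs stood at 5.05 CPM, so microvillar cells without sustentacular RNA were at the level of neurons. The part of doublets in the rest was not tested.

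After the respiratory classes, *Bpifa1* had its highest mean in the horizontal basal class, at 3048 CPM with a range of 697 to 8592 CPM over libraries. Of horizontal basal cells 8.26% had 20 or more *Bpifa1* UMIs, against 1.4% of sustentacular cells and 0.871% of microvillar cells of the Ascl3/Cftr type. *Bpifa1* in microvillar cells of the Ascl3/Cftr type was at 5296 CPM in swap replicate 1 and at 28.7 to 373 CPM in the other 5 libraries. In sustentacular cells it was at 394 to 2134 CPM, and 27420 of its 75366 UMIs there were in 3 cells. Thinned to 3000 UMIs, 10.4% to 15.1% of sustentacular cells of the swap and control libraries had a *Bpifa1* UMI, against 7.08% to 11.4% of mature neurons. The order was reversed in tetOP2, at 50% of sustentacular cells and 55.1% of neurons, and in gg8tTA, at 56.7% and 65.2%.

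Swap and control libraries were compared in gland-gated, sustentacular and neuron sums, to see whether replacing HP1β with HP1α went with a change in these genes. The control group pools 2 libraries that differ in labelled genotype. In none of the 3 classes was a member called by edgeR's quasi-likelihood test, and 0% of all genes tested were called (12937 genes in sustentacular cells, 10469 in gland-gated cells and 12519 in neurons). At an unadjusted p below 0.05 there were 144, 96 and 314 genes, and DESeq2 called 45, 6 and 208. *Muc2* in sustentacular cells, with both swap values straddling the controls, had a log2 fold change of 0.16 (SE 0.36, adjusted p = 1). *Obp2a*, *Lcn3* and *Lcn14* in gland-gated cells had 0.16 (SE 0.61), 0.75 (SE 0.58) and -0.51 (SE 0.61), all with an adjusted p of 1. In sustentacular cells *Obp2a*, *Lcn3* and *Lcn14* had 5.69 (SE 2.38), 5.72 (SE 2.44) and 5.54 (SE 2.35), all with an adjusted p of 1, and they were called without swap replicate 2, without control replicate 1 or without control replicate 2, which left swap replicate 1 with its 1 lipocalin-rich sustentacular cell in place. Without swap replicate 1 they were not called. For *Obp1a*, *Lcn11* and *Bpifb9b* in gland-gated cells the SE lay between 2.82 and 3.94, so that even large differences could not have been told from the spread.

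*Bpifa1* in gland-gated cells was at 1046 and 215 CPM in swap replicates 1 and 2 and at 17.4 and 26.9 CPM in control replicates 1 and 2. The groups did not overlap, but how many of all genes showed this was not counted, so it is not read as a result about *Bpifa1*. Its log2 fold change was 4.94 (SE 0.94, unadjusted p = 0.0027, adjusted p = 1, edgeR's quasi-likelihood test). It was called in 6 of 14 alternatives, among them DESeq2 (4.96) and the replicate number as a block (4.62). Of 4565 UMIs in swap replicate 1, 4352 were in 1 cell, and of 353 in swap replicate 2, 310 were in 1 cell. *Bpifb1* in sustentacular cells was at 6.35 and 5.95 CPM in the swap libraries and 0.9 and 2.21 CPM in the controls (log2 fold change 2.01, SE 0.54, unadjusted p = 0.013, adjusted p = 1). The study's methods state biological replicates, and the swap libraries differed in *Xist*, but with 2 libraries per group these p-values rest on few degrees of freedom.

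The tetOP2 and gg8tTA libraries are 1 per genotype and carry no test. In gland-gated cells *Lcn11* was at 5448 CPM in tetOP2 (exact Poisson 95% interval 5327 to 5572) and 43395 CPM in gg8tTA (43176 to 43614), and *Lcn3* at 2518 CPM (2436 to 2603) and 10216 CPM (10110 to 10323). *Obp1a* went the other way, at 7853 CPM (7707 to 8001) in tetOP2 and 5431 CPM (5354 to 5509) in gg8tTA, as did *Muc5b* at 613 CPM (572 to 655) and 164 CPM (151 to 178). The shares of the 2 gland clusters, 10 lipocalin cells of 57 in tetOP2 and 111 of 153 in gg8tTA, moved with the levels of *Lcn11* and *Lcn3* but not with that of *Obp1a*, a gene of the same cluster. These levels rested on few tetOP2 cells. Over all kept cells, 3 cells of tetOP2 and 18 of gg8tTA had 50 or more *Obp1a* UMIs. For *Lcn11* they were 4 and 67. The Poisson intervals count molecules and leave out this spread over cells.

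Mature olfactory neurons are not known to make these proteins, and their level there was read as the background of each library. *Lcn11* in neurons was at 7.72 and 0.412 CPM in swap replicates 1 and 2, 11.9 and 0 CPM in the controls, 8.2 CPM in tetOP2 and 142 CPM in gg8tTA. In gg8tTA the same gene was at 134 CPM in immature neurons, 135 in fibroblasts and 110 in B lineage cells, so it was spread evenly over cell types. *Bpifa1* in neurons was at 53.8 and 40.6 CPM in the swap libraries, 45 and 38.6 CPM in the controls, 260 CPM in tetOP2 and 337 CPM in gg8tTA. Relative to the mean over all kept cells of the library this was 0.617% to 1.4% in the controls, 0.611% to 0.826% in the swap libraries, 8.51% in tetOP2 and 10.6% in gg8tTA.

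Both gg8-tTA libraries thus had a higher background of *Bpifa1* than the swap and control libraries. The same held for *Obp1a* (17.4 CPM in tetOP2 and 35.5 CPM in gg8tTA), *Muc5b* (4.81 and 3.73 CPM) and *Bpifb1* (1.7 and 1.66 CPM). The gg8tTA library was also highest for *Lcn11*, *Obp2a* (77.6 CPM), *Lcn3* (55.8 CPM), *Bpifb9b* (28.6 CPM) and *Lcn14* (28 CPM). At least 1 UMI of *Bpifa1* was found in 97.2% of gg8tTA neurons and of *Lcn11* in 79%. With neurons thinned to 3000 UMIs these shares were 65.2% and 37.5%, against 7.08% to 11.4% for *Bpifa1* and 0% to 3.1% for *Lcn11* in the swap and control libraries. The median depth of gland-gated Dcpp and lipocalin cells was 21709 and 22836 UMIs, against 11988 UMIs in mature neurons with fewer than 20 sustentacular marker UMIs. *Obp2a* in neurons of swap replicate 1 (56.3 CPM) was an exception, as 177 of its 445 UMIs were in 1 cell.

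**Figure D5:**
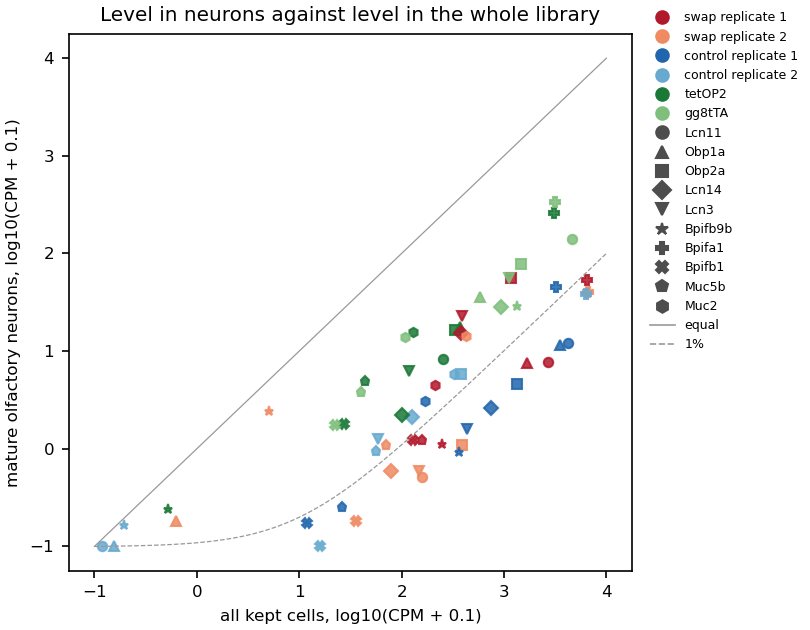
Level of each gene (symbol) in mature olfactory neurons (y axis) against its level over all kept cells (x axis) in each library (color), both as log10(CPM + 0.1), with lines at equal levels and at 1% of the library level. All points of tetOP2 and gg8tTA lie above the 1% line, with *Bpifa1* at 8.51% and 10.6%, and *Bpifa1* of the swap and control libraries lies close to it, at 0.611% to 1.4%.

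Related genes on 5 lists were compared between gland-gated and sustentacular cells, beside a median log2 fold change of -0.06 over all genes tested. Of all genes tested, 16.5% were called higher and 18.3% lower, and the counts of each list are to be read beside these shares. Of 22 other lipocalins, 17 were in the files and 8 passed the filter on low counts, 6 of which were called higher and 0 lower, with a median log2 fold change of 8.7. The leading ones were *Gm14744* (11.60, SE 0.91), *Mup4* (10.78, SE 0.85), *Gm14743* (10.47, SE 1.15) and *Mup5* (10.17, SE 1.08), and major urinary proteins (*Mup*) are pheromone carriers. Of 12 other BPI fold genes, 6 were tested and 5 called higher, among them *Bpifb4* (7.51, SE 0.95) and *Bpifb3* (7.57, SE 1.29), both of which led the Dcpp cluster.

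Other mucins behaved differently. Of 13 listed, 9 were in the files and 4 were tested, with 0 called higher and 3 lower, among them the membrane mucins *Muc1* (-1.28, SE 0.37) and *Muc4* (-3.36, SE 0.31). *Muc5ac*, the other main gel-forming airway mucin, was not tested and stood at 536 CPM in respiratory secretory cells against 1.7 CPM in gland-gated cells. Of 19 other mucus and defence genes, 14 were tested and 10 called higher, among them *Wfdc18* (6.95, SE 0.45), *Scgb1c1* (2.47, SE 0.21), *Ltf*, which encodes the iron-binding lactoferrin (6.55, SE 1.04), and the chitinase-like *Chil6* (6.12, SE 0.40). Of 13 genes of the secretory machinery, 12 were tested and 10 called higher, with smaller differences such as 1.30 (SE 0.14) for the translocon gene *Sec61b*, 0.74 (SE 0.13) for the secretory transcription factor gene *Xbp1* and 0.62 (SE 0.09) for the chaperone gene *Hspa5*. *Agr2*, a disulfide isomerase gene needed for mucin folding, had 0.39 (SE 0.21) and did not pass. Between swap and control, 0 genes of these lists were called in sustentacular or gland-gated cells, the only classes in which the lists were counted.

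The genes outside the members that were most like each member were sought by Pearson's r of log2(CPM + 1). This used 112 sums of UMIs per class and library. These sums share libraries, depth and background, so r is a description. For *Lcn11* they were *Gm14744* (r = 0.92), *Scgb2b27* (0.87) and *Mup4* (0.84), and for *Obp1a* they were *Gm14743* (0.85), *Mup5* and *Scgb2b27* (0.83 each). *Lcn3* was most like *Mup4* and *Dmbt1* (0.75 each), and *Lcn14* most like *Dmbt1* and *1010001N08Rik* (0.71 each). *Obp2a* had weaker partners outside the members, with 0.69 for *Dmbt1*, *Bpifb4* and *Slc22a20*. Some members were closer to each other than to these genes. *Obp2a* had r = 0.92 with *Lcn3* and 0.90 with *Lcn14*, *Lcn3* had 0.91 with *Lcn14*, and *Obp1a* had 0.86 with *Lcn11*. *Bpifb9b* was most like its neighbour *Bpifb9a* (0.92), with which it shares sequence.

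*Bpifa1* and *Bpifb1* shared the trefoil factor gene *Tff2* as the closest gene (0.86 and 0.87). *Muc5b* was most like *Galntl6* (0.78) and *Spdef* (0.77), the latter a transcription factor gene of goblet cells. *Muc2* was most like the sustentacular genes *Cyp2g1* (0.83), *Gldn* and *Cyp2a5* (0.81 each).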

How the data were processed

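The authors deposited counts, namely UMIs per gene and barcode from the 10X Chromium v3 kit, counted with Cell Ranger with introns included on build mm10 per the labels, and not normalized. Barcodes below 1000 UMIs or 500 genes were dropped, and doublets, scored against simulated pairs, were removed at 0.8% per 1000 cells. Classes were gated by 21 marker lists without the members (at least 3 markers detected, mean z score capped at 3 above 0.5, highest class taken). Gland-gated cells were split by Leiden clustering (leidenalg 0.10.2, 2000 variable genes, 30 components, 15 neighbours, resolution 1.5) without the members. The form of the gate and this split were chosen after the data had been seen, and members and lists with earlier results of these data known. Sums per library and class of at least 10 cells were tested with edgeR 4.0.16 (quasi-likelihood, TMM, its filter on low counts, Benjamini-Hochberg) in R 4.3.3, with DESeq2 1.42.0 as an alternative. The SE is the log2 fold change divided by the square root of F. On simulated counts with 200 changed genes, the gland test recovered 198 with 5 false calls, and the swap tests recovered 158, 165 and 163 in sustentacular, gland-gated and neuron sums with 5, 7 and 5. Of 50 genes changed by the size of a doubling, the swap tests recovered 10, 16 and 18. The simulated dispersion, the spread between libraries, was 0.05, so these counts do not carry over to genes that varied more. CPM is UMIs per 1000000 of the sum. Shares have exact Clopper-Pearson and sums exact Poisson intervals at 95%, and a count of 0 allows 3 counts, all for counting error only. Named genes were the members, the markers, up to 4 genes of each companion list with the highest level in its highest class, and the 3 non-member genes most correlated with each member. Other genes named were chosen after their values were seen. Coordinates are from the GRCm38 annotation. Part of the genotype labels is not reported here.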

Additional observations from a re-analysis of the deposited data

Results flagged for a closer look

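Barcodes under 1000 UMIs were used in no comparison between groups, and 2 genes stood above both control libraries in them in both swap libraries. *Bpifb9b* was at 96.9 and 41.6 CPM in the barcodes of swap replicates 1 and 2 and at 16.9 and 0.467 CPM in those of control replicates 1 and 2. *Muc5b* was at 120 and 170 CPM in swap replicates 1 and 2, against 50.7 and 6.07 CPM in the controls. These values rest on 258012 and 529191 UMIs of swap barcodes and on 355119 and 2143147 UMIs of control barcodes. The difference was not tested, and 2 of 10 members showed this order. How many of all genes showed it was not counted, so the 2 are not read as a result about the members.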

How the results depend on the processing

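Under each of the 5 alternative ways of defining cells, 6 members were highest in gland-gated cells, as in the main setting. Whether the remaining members kept their highest class was not checked. The level of each of the 10 members in its main highest class moved by less than the SD over libraries. That limit was wide for some genes, such as an SD of 12011 CPM around a mean of 10695 CPM for *Obp1a*. In the test of gland-gated against sustentacular cells, 8 members were called. The count was 9, with *Bpifa1* added, under DESeq2, 1 gate marker more, cluster classes, without swap replicate 1 and without gg8tTA, 3 with the Dcpp cluster alone, where *Bpifb9b* reversed to -0.50, and 8 elsewhere. This alternative and the others that use the clusters or leave out cells passing 2 gates were chosen after seeing the data. *Bpifb1*, near 0 in that test, reversed to 0.96 with 1 marker more in the gate, to 0.22 with doublets kept, to 0.51 without the library block, and with 1 library left out gave -0.64 to 0.25, among them 0.15, 0.19, 0.25 and 0.01 without swap replicate 2, control replicate 1, control replicate 2 and tetOP2. Between swap and control, where 0 members were called in each class, the count in gland-gated cells was 1 with DESeq2, 2 without the filter on low counts, 1 with Dcpp cells only and 1 with the replicate block. With 1 library left out it was 0 to 3, against 0 to 5 in sustentacular cells and 0 to 2 in neurons, and the lone sample of a group was then assumed to vary like the other group. *Muc2* in sustentacular cells reversed to -0.21 without swap replicate 2, in a range up to 0.45 without swap replicate 1. Deviations of libraries with the same number correlated at r = 0.371 in sustentacular, 0.661 in gland-gated and 0.191 in neuron sums over genes, but with 2 pairs they share only a number. The replicate block moved the calls over all genes from 0 to 19 in gland-gated cells and left 0 in the other classes. All-gene calls with 1 library left out were 13 to 540 in sustentacular cells, 0 to 50 in gland-gated cells and 194 to 246 in neurons. Without the filter they were 1, 47 and 58, and with Dcpp cells only 7. The causes were not tested. Depth limits *Bpifb1*, which had 72 UMIs in all gland-gated cells.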
